A study of Rattus norvegicus with 9 samples.

Results

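Keratins are the proteins of the epithelial intermediate filaments. The family examined here holds every gene whose deposited symbol begins with Krt, Kb or Ka followed by a digit, leaving out the keratin-associated proteins (Krtap). That rule, which used names and no measured value, took 50 probe sets with 47 symbols, which correspond to 46 genes of the 19102 named genes on the array. They fall into 8 classes by where the proteins are best known: 3 basal, 9 suprabasal, 2 stress, 15 hair shaft, 7 root sheath, 4 simple epithelial and 4 mucosal or corneal keratins, and 2 others. For the stress class only Krt16 and Krt17 were members; Krt6a, Krt6b and Krt6c were not analysed here.

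The arrays held total RNA from skin of Sprague Dawley rats, 1 array per rat. The CGN group was 4 rats given carrageenan, a seaweed polysaccharide that sets off acute inflammation, at 30 mg per kg body weight; their paws were tested for swelling and for pain under pressure 3 hours later, and the skin was taken 4 hours after the dose. The control group was 5 rats without carrageenan. The question set by the study's design is which genes differ between CGN skin and untreated skin; the labels give neither the age or sex of the rats nor the body site of the skin.

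A keratin filament is built from pairs of a type I and a type II chain, and different layers of an epithelium use different pairs. In epidermis the dividing basal cells make Krt5 and Krt14, and cells that leave the basal layer switch to Krt1 and Krt10, with Krt2 added in the upper layers. Wounded or inflamed epidermis is known for making Krt6, Krt16 and Krt17, while the hair follicle has its own keratins in the hair shaft and in the sheaths around the growing root.

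All values are RMA intensities, a linear brightness after background correction and normalization across arrays. Differences are on the log2 scale, CGN minus control, with the standard error (SE). A gene was called when its limma p-value, adjusted by Benjamini-Hochberg over all 19102 genes, was under 0.05. The table holds no detection call and its values start at 4.07, so a member near the bottom of the scale may not be above background. On the first principal component, which held 65.6% of the variance, CGN replicate 1 lay at -20.8, apart from the other CGN arrays at -55.1 to -53.7, while the controls lay at 33.0 to 41.3. Results that rest on CGN replicate 1 are therefore given with and without it. Markers of skeletal muscle also moved with the groups: all 22 muscle genes measured lay below 0 and 21 of them were called lower, against 13.5% of all genes, and their mean log2 intensity ran from 5.24 to 7.53 in CGN skin, against 8.31 to 10.72 in control skin. Since these ranges do not overlap, a fit with the muscle mean as a covariate cannot wholly tell muscle and group apart.

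In CGN skin 1 keratin, Krt17, rose, and 2 keratins of the suprabasal layers, Krt2 and Krt24, fell. Called higher were 8.72% of all genes and called lower 13.5%, so the 3 calls among 46 keratins, or 6.52%, stand against 22.2% of all genes called in either direction. Without adjustment 11 keratins, or 23.9%, had a limma p under 0.05, against 33.0% of all genes. The median change was -0.03 over the 46 keratins and -0.01 over all genes, with 21 keratins above 0 and 25 below. The class medians were -0.29 for basal, -0.05 for suprabasal, 2.27 for stress, 0.11 for hair shaft, -0.10 for root sheath, -0.71 for simple epithelial, -0.04 for mucosal or corneal and 0.27 for other keratins. The 4 CGN arrays lay wholly above the 5 control arrays for 1 keratin, Krt17, as they did for 8.44% of all genes, and wholly below them for 1, Krt24, against 10.6% of all genes. Without CGN replicate 1 the called keratins were Krt16 and Krt17 higher and Krt2, Krt4, Krt15, Krt23 and Krt24 lower, where the shares of all genes were 9.74% and 15.9%. With the muscle mean as a covariate Krt17 was the 1 keratin called, where 2.3% of all genes were called higher and 0.356% lower.

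**Figure D1:**
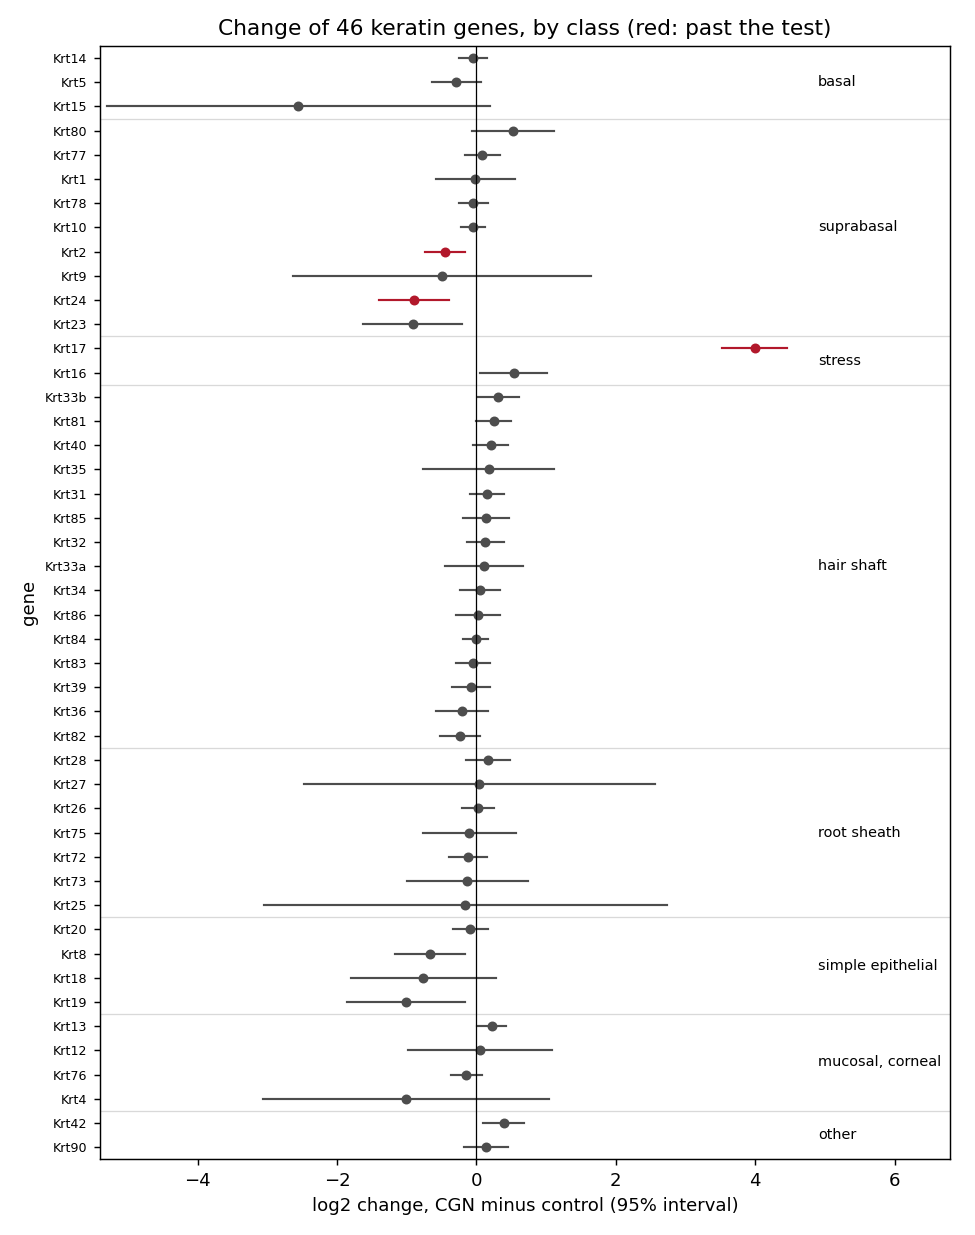
Log2 change, CGN minus control, of each of 46 keratin genes (points) with its 95% interval (lines), grouped by class, from 4 CGN and 5 control arrays. Krt17, at 3.99, is the only gene drawn in red to the right of 0, and Krt2 and Krt24 are drawn in red to the left; Krt15, Krt4, Krt9, Krt25 and Krt27 have the widest intervals.

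Krt17, a type I keratin that healthy skin makes mostly in its appendages, had intensities of 8961, 15484, 16765 and 11399 in the CGN skins and 638, 684, 747, 1139 and 887 in the control skins. The groups were far apart, the lowest CGN array being CGN replicate 1 and the highest control array control replicate 4. Mean log2 intensity was 13.64 ± 0.42 in CGN skin (SD, n = 4) and 9.65 ± 0.34 in control skin (SD, n = 5), a difference of 3.99 ± 0.21 (SE) or 15.9-fold, with a 95% interval of 11.5- to 22.1-fold and a limma adjusted p of 4.89e-07. In whole skin, more cells making a transcript and more transcript per cell cannot be told apart. With the muscle mean as a covariate the Krt17 difference was 3.15 ± 0.22, with a limma adjusted p of 4.23e-05.

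Krt16, the type I partner of Krt6, had intensities of 6440.2, 8491, 12416 and 8715 in the CGN skins and 6422, 6191, 3862, 7552 and 6981 in the control skins. The groups overlapped, since CGN replicate 1 lay below 2 of the control arrays. The difference of 0.54 ± 0.22 did not pass, with a limma adjusted p of 0.110. Without CGN replicate 1 it was 0.68 ± 0.21 and passed, with a limma adjusted p of 0.0388; with the muscle mean as a covariate it was -0.12 ± 0.31. The second probe set of Krt16, deposited under the older symbol Krt14l, differed by 1.12 ± 0.34 and had a limma adjusted p of 0.0424 when all probe sets were tested. The names of both Krt16 probe sets end in _s_at, a form used for probes that can also match related transcripts, so the Krt16 signal may include other type I keratins.

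In the RefSeq gene order of chromosome 10, where 26 of 27 keratin genes were members, Krt14, Krt16, Krt17 and Krt42 follow each other. Their changes were -0.05, 0.54, 3.99 and 0.39, and of these neighbours only Krt17 passed. Krt42, a type I keratin, had intensities of 29.7, 35.5, 36.2 and 29.0 in the CGN skins and 26.15, 24.2, 24.8, 19.2 and 30.5 in the control skins. Control replicate 5 lay above 2 CGN arrays, and the Krt42 difference of 0.39 ± 0.14 had a limma adjusted p of 0.0608. Without control replicate 5, the control array in the overlap, it was 0.47 ± 0.13 and passed, with a limma adjusted p of 0.0318. Krt42 did not pass when any other single array was left out.

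None of the 3 basal keratins was called by limma, and 0 of them had an unadjusted p under 0.05, against 22.2% and 33.0% of all genes. Krt14, the type I keratin of basal cells, had intensities of 21389, 16909.9, 21750.2 and 19680.6 in the CGN skins and 20251, 19749.6, 20158, 20907 and 21438 in the control skins. The CGN range enclosed the control range, and the difference was -0.05 ± 0.09, with a 95% interval of -0.25 to 0.16. Krt5, its type II partner, had 3695, 2939, 4508 and 2398 in the CGN skins and 3693, 4291, 4016, 4082 and 4033 in the control skins. CGN values of Krt5 lay on both sides of the control range, with an SD of 0.40 in CGN and 0.08 in control log2 intensity and a difference of -0.29 ± 0.16 (limma adjusted p 0.251).

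Krt15, a type I keratin of basal cells that also marks the stem cell bulge of the follicle in mouse and human skin, had intensities of 5538, 88.0, 61.9 and 70.6 in the CGN skins and 566, 367, 3458, 2013 and 2199 in the control skins. The value of CGN replicate 1 lay above every control array, and the other CGN values lay below every control array. With all arrays the Krt15 difference was -2.55 ± 1.25 (limma adjusted p 0.185). Without CGN replicate 1 it was -4.12 ± 0.64, with a limma adjusted p of 0.000917. With the muscle mean as a covariate, all arrays included, it was -1.17 ± 2.21, smaller than its SE. CGN replicate 1 was also the highest CGN array in 8 of 11 sebocyte (sebaceous gland) genes, against 27.4% of all genes. Their mean log2 intensity was 7.68 in CGN replicate 1 and 5.98 to 6.20 in the other CGN skins, with 6.76 and 6.84 in control replicates 3 and 5 and 5.84 to 6.16 in the other control skins. The part of sebaceous glands in the Krt15 values, and in the Krt4 and follicle keratin values below, was not tested.

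Setting keratins against each other array by array asks whether 2 of them changed by different amounts. The log2 ratio of Krt17 to Krt14 differed between CGN and control by 4.04, with a 2-sided exact permutation p of 0.0159, the smallest that splits of 9 arrays into 4 and 5 can give, and an adjusted p of 0.0794 over the 5 pairs compared. It did not pass after adjustment. Over 5 pairs a single pair at the smallest p cannot pass, however large its difference, so this failure says nothing about the ratio. A count of splits by absolute difference, which was the first version run, gave an adjusted exact permutation p of 0.0397, past the threshold. The other pairs had differences of 0.58 for Krt16 to Krt14, -0.24 for Krt5 to Krt14, 0.03 for Krt1 to Krt10 and 0.09 for Krt8 to Krt18, with exact permutation p between 0.0794 and 0.937 before adjustment. Of 6 pairs planned, Krt6a to Krt5 was not analysed here.

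**Figure D2:**
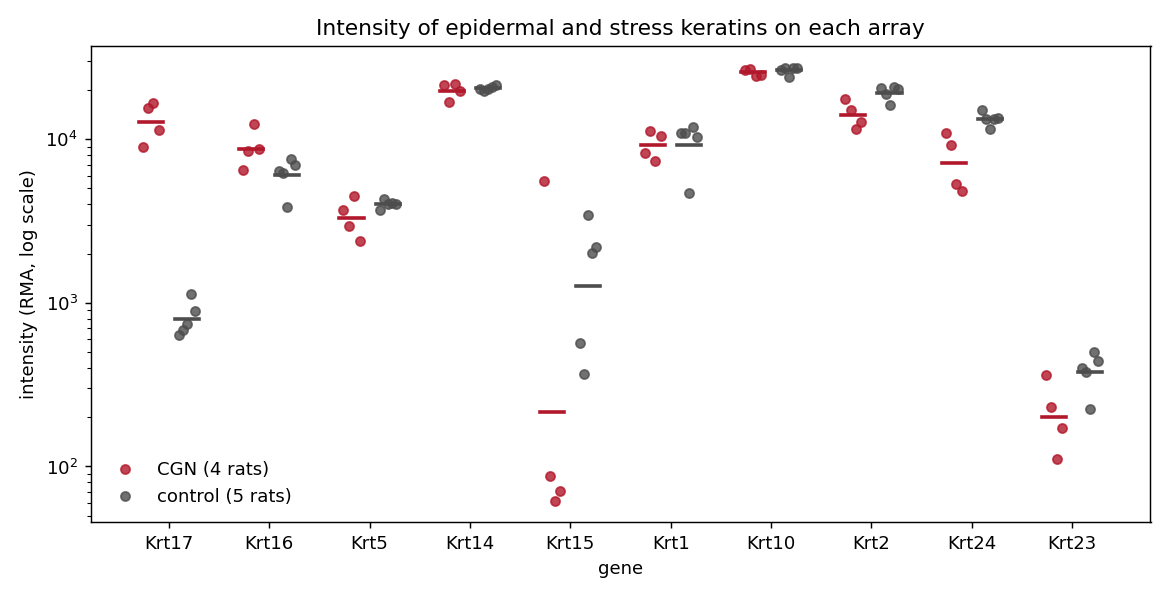
Intensity (RMA, log scale) of 10 epidermal and stress keratins on each array, CGN on the left of each gene and control on the right; points are arrays and bars are geometric means. For Krt17 all CGN points lie above all control points, for Krt24 all lie below, and for Krt15 a single CGN point, CGN replicate 1, lies at 5538 while the others lie between 61.9 and 88.0.

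Among the 9 suprabasal keratins 2 fell and 7 did not pass. The share called, 22.2%, equals the 22.2% of all genes called in either direction, where 13.5% were called lower. Without adjustment 33.3% of the class had a limma p under 0.05, against 33.0% of all genes. Krt24, a type I keratin of differentiating keratinocytes, had intensities of 10992, 9238, 5297 and 4804 in the CGN skins and 15044, 13298, 11504 and 13373 in control skins 1 to 4, with 13447 in the fifth. Every CGN value lay below every control value. The difference was -0.90 ± 0.23 (limma adjusted p 0.0157), or 46.3% lower, and without CGN replicate 1 it was -1.11. With the muscle mean as a covariate it had the same size, -0.90 ± 0.42, but did not pass, with a limma adjusted p of 0.323; it also did not pass without moderation of the variances, at 0.0633.

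Krt2, the type II keratin of the upper epidermal layers, had intensities of 17629, 15012, 11611 and 12814 in the CGN skins and 20440.5, 18815, 16177, 20757 and 20280.05 in the control skins. CGN replicate 1 lay above control replicate 3, so the groups overlapped. The difference was -0.45 ± 0.13 (limma adjusted p 0.0323), or 26.7% lower. The Krt2 call was lost when any single array other than CGN replicate 1 or control replicate 3 was left out, with limma adjusted p of 0.0551 to 0.0959, and it was lost with the muscle mean as a covariate at 0.403, where the difference was -0.46 ± 0.24.

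Krt1 and Krt10, the pair that replaces Krt5 and Krt14 as cells leave the basal layer, did not pass. Krt1 had 8222, 11196, 7338 and 10473 in the CGN skins and 10968, 10893, 4714, 11810 and 10335 in the control skins. The lowest Krt1 value of all was control replicate 3, and the difference was -0.02 ± 0.26. Krt10 had 26394, 26790.4, 24486 and 24812 in the CGN skins and 26325, 27274, 24155, 27344 and 27404 in the control skins. The Krt10 difference was -0.05 ± 0.08. Krt10 was the brightest gene on all 9 arrays, and 27404 is the highest value in the whole table. Whether the probe set was saturated was not tested. Saturation was also not tested for Krt14 and Krt2, which ranked 2 to 10 and 3 to 45 in brightness over the arrays.

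Krt23, a type I keratin, had intensities of 364, 232, 110.5 and 171 in the CGN skins and 401, 377, 226, 502 and 442 in the control skins. CGN replicates 1 and 2 lay above control replicate 3. The Krt23 difference of -0.91 ± 0.32 had a limma adjusted p of 0.0656. It passed at -1.20 without CGN replicate 1 (limma adjusted p 0.00872) and at -1.10 without control replicate 3 (limma adjusted p 0.0284). Both arrays were in the overlap, and Krt23 did not pass when any other single array was left out. Krt9 is the type I keratin known from palm and sole epidermis in human and mouse. It had 368, 248, 1061 and 94.3 in the CGN skins and 1887, 261, 1815, 207 and 82.5 in the control skins. Control replicates 1 and 3 were the highest arrays. The part of body site, which the labels do not give, was not tested. The Krt9 difference of -0.49 ± 0.97 was smaller than its SE. The type II keratins Krt77, Krt78 and Krt80 had changes of 0.09, -0.04 and 0.53 and did not pass; the second probe set of Krt78 differed by -0.71 ± 0.35 and did not pass either.

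None of the 15 hair shaft keratins and none of the 7 root sheath keratins was called by limma, against 22.2% of all genes. An unadjusted limma p under 0.05 was found for 2 and 0 of them, against 33.0% of all genes. Changes ran from -0.24 to 0.32 in the hair shaft class, whose furthest from 0 was Krt33b, a keratin of the hair cortex. Krt33b had 65.0, 52.8, 49.3 and 45.3 in the CGN skins and 45.5, 38.8, 42.8, 50.9 and 35.2 in the control skins. The groups overlapped, and the difference was 0.32 ± 0.13 (limma adjusted p 0.128). In the root sheath class changes ran from -0.16 to 0.17. Krt28 was furthest from 0 there at 0.17 ± 0.14, with 9.99, 6.82, 7.14 and 7.32 in the CGN skins and 6.15, 6.59, 6.31, 8.83 and 6.81 in the control skins.

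Several follicle keratins were high on the same arrays. Krt25, a type I keratin of the inner root sheath, had intensities of 339.5, 12.3, 8.78 and 8.77 in the CGN skins and 12.5, 8.47, 7.62, 334 and 48.9 in the control skins. Krt27, a second type I keratin of that sheath, had 218, 11.25, 8.84 and 10.6 in the CGN skins and 11.9, 7.93, 8.78, 237 and 22.3 in the control skins. Krt73, a type II keratin of the sheath, had 269, 86.9, 78.2 and 91.8 in the CGN skins and 113, 97.9, 86.0, 259 and 123 in the control skins. For all 3 genes 1 array of each group stood high, CGN replicate 1 and control replicate 4, with control replicate 5 next among the controls.

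CGN replicate 1 was the highest CGN array and control replicate 4 the highest control array in 6 of 7 root sheath keratins and in 13 of 22 follicle keratins together, against 4.39% of all genes. Of 13 follicle genes outside the keratin family 2 had both arrays highest, Tchh and S100a3, and the other 11 did not. Tchh, which encodes a matrix protein of the inner root sheath, had 71.9 in CGN replicate 1 and 8.48 to 11.7 in the other CGN skins, with 39.0 in control replicate 4 and 9.23 to 13.9 in the other control skins. S100a3, a protein of the hair cuticle, had 435 in CGN replicate 1 and 86.3 to 181 in the other CGN skins, with 607 in control replicate 4 and 172 to 341 in the other controls. Krt25, Krt27, Krt73, Tchh and S100a3 were chosen after their values were seen. The 95% intervals of the CGN minus control difference were -3.04 to 2.73 for Krt25 and -2.48 to 2.56 for Krt27, so a change of several log2 units in either direction was not detectable in these 2 genes. Without CGN replicate 1 the differences were -1.44 for Krt25, -1.06 for Krt27 and -0.54 for Krt73, and none passed.

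**Figure D3:**
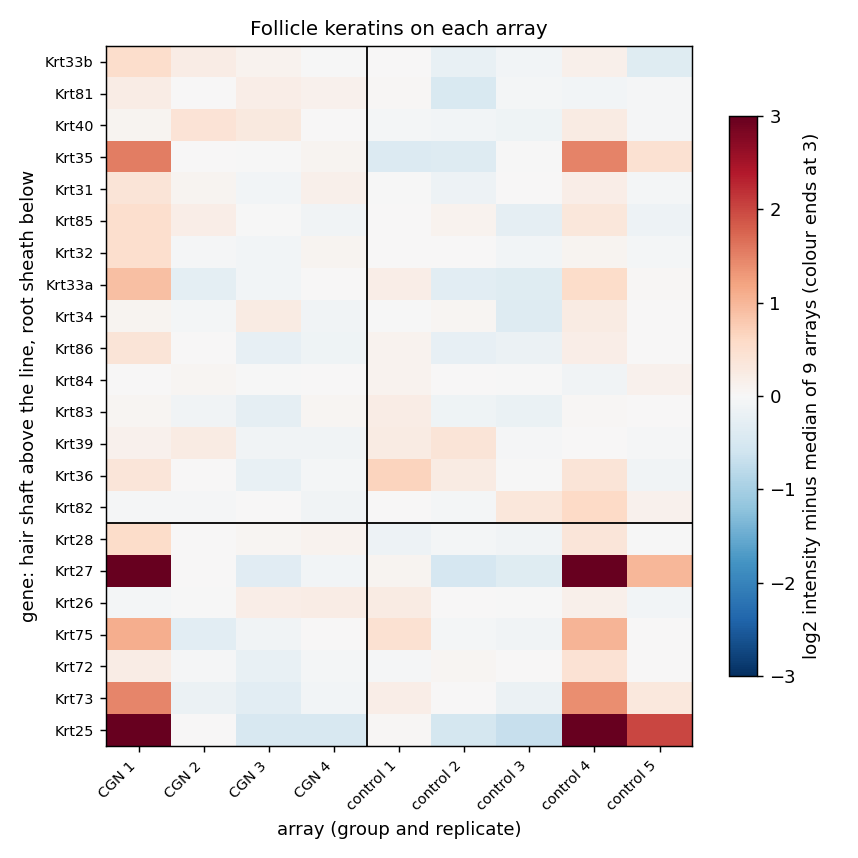
Log2 intensity minus the gene's median over 9 arrays (colour, ending at 3) for 15 hair shaft keratins above the line and 7 root sheath keratins below it, with the 4 CGN arrays on the left and the 5 control arrays on the right. The columns of CGN replicate 1 and control replicate 4 are red in most rows, most strongly for Krt25 and Krt27.

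Promoters are shown for Krt25 and Krt27, which were high on the same arrays, and for Krt2 and Krt24, the 2 keratins that fell. The sequences are from RefSeq on build GRCr8, each running from 250 bases before to 50 bases after the annotated start, 5′ to 3′ on the minus strand that holds the gene, with TATAAA in capitals. Krt25 lies at chr10:84771148-84771447, Krt27 at chr10:84800082-84800381, Krt2 at chr7:134826687-134826986 and Krt24 at chr10:84733437-84733736.
Krt25: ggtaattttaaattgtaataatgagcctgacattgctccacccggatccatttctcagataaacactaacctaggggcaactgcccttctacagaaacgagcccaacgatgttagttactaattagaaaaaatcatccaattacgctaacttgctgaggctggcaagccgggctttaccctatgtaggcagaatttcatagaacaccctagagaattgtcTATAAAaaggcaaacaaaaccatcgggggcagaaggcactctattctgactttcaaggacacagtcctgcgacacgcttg
Krt27: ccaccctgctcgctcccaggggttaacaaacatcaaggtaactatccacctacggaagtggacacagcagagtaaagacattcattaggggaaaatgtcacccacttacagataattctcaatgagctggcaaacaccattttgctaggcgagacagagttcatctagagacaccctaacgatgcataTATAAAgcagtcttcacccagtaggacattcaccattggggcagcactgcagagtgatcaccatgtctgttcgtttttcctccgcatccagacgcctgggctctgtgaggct
Krt2: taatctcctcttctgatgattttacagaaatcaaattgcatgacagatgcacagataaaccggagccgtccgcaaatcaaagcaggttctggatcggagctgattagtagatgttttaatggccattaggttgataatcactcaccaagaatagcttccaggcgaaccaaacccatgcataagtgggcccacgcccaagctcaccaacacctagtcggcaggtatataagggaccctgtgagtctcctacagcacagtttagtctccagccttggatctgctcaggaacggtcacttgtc
Krt24: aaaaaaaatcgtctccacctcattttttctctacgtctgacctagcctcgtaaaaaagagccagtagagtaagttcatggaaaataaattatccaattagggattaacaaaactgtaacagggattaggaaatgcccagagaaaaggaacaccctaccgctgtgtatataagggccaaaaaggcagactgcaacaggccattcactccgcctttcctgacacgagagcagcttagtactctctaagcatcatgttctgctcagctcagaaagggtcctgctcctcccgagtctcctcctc
TATAAA begins 30 bases before the start of Krt25 and 62 bases before that of Krt27, and is not in the windows of Krt2 and Krt24. Those 2 windows do hold the similar letters tatataag, which the exact search did not count. A promoter was given for 34 of the 46 members; 20 of them, or 58.8%, hold TATAAA on either strand, against 14.2% of all 33469 RefSeq promoters. The other motifs searched on both strands were TGANTCA in 2 of 34 keratin promoters against 7.33% of all, TTCNNNGAA in 4 against 8.87%, GCCNNNGGC in 5 against 15.1%, and CACCC in 25, or 73.5%, against 54.9%. No motif overlap was removed, the motifs and genes were chosen after the values were seen, and a match describes letters only.

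The 4 simple epithelial keratins, which single-layered and glandular epithelia use, all lay below 0. None passed in limma and 2 had an unadjusted p under 0.05, against 22.2% and 33.0% of all genes. Krt19 had intensities of 19.5, 14.5, 13.9 and 14.4 in the CGN skins and 52.5, 17.5, 69.6, 23.8 and 18.9 in the control skins. Krt18 had 8.31, 8.44, 8.35 and 6.18 in the CGN skins and 17.3, 7.87, 45.1, 9.93 and 6.39 in the control skins, and its partner Krt8 had 12.1, 10.3, 11.8 and 14.2 in the CGN skins and 23.6, 13.5, 31.6, 16.9 and 15.0 in the control skins. For each of these 3 genes control replicates 1 and 3 were the highest arrays, as they were in 11.6% of all genes; these were also the 2 arrays with the highest muscle mean, at 10.72 and 10.61. They were the 2 highest control arrays in 20 of 22 muscle genes, in 8 of 8 fibroblast genes and in 7 of 15 genes of other intermediate filaments as well; the part of fibroblasts was not tested. The differences were -1.01 ± 0.38 for Krt19 (limma adjusted p 0.0891), -0.76 ± 0.47 for Krt18 and -0.67 ± 0.23 for Krt8 (limma adjusted p 0.0592). Krt8 passed after quantile normalization, at -0.68 (limma adjusted p 0.0476), and without control replicate 2, its lowest control array, at -0.79 (limma adjusted p 0.0346). Krt8 did not pass when any other single array was left out. With the muscle mean as a covariate the differences were 0.14 ± 0.55 for Krt19, 0.28 ± 0.77 for Krt18 and 0.01 ± 0.33 for Krt8. Each was smaller than its SE, so this fit does not settle the direction of these changes. Krt20, the fourth, had a change of -0.09.

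Krt4, a type II keratin of oral and oesophageal lining, was also high in CGN replicate 1 on its brighter probe set, with 1026, 72.35, 40.9 and 41.2 in the CGN skins and 131, 64.1, 482, 257 and 415 in the control skins. CGN replicate 1 lay above every control array, and the other CGN arrays lay among or below the lowest controls. The Krt4 difference was -1.01 ± 0.93, and without CGN replicate 1 it was -2.10 and passed (limma adjusted p 0.0216). The second probe set of Krt4 differed by 0.07 ± 0.13, so the 2 probe sets disagree. The rest of the class, Krt13 and Krt76 of oral lining and Krt12 of the cornea, had changes of 0.22, -0.14 and 0.05. None of the 4 passed in limma, and 1, Krt13, had an unadjusted p under 0.05, against 22.2% and 33.0% of all genes.

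Between rats of 1 group, the median keratin had a wider spread than the median gene, a difference that was not tested. The median SD of log2 intensity was 0.248 for keratins and 0.175 for all genes among CGN arrays, and 0.222 for keratins and 0.171 for all genes among control arrays. The SD lay above the 95th percentile of all genes for 12 of 46 keratins in CGN skin and for 14 of 46 in control skin. Krt4, Krt9, Krt15, Krt23, Krt25, Krt27, Krt35, Krt73 and Krt75 were above it in both groups. Krt24 was above it only in CGN skin, at 0.588, against 0.138 in control skin, and Krt18 and Krt19 only in control skin; the difference in spread between groups was not tested.

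**Figure D4:**
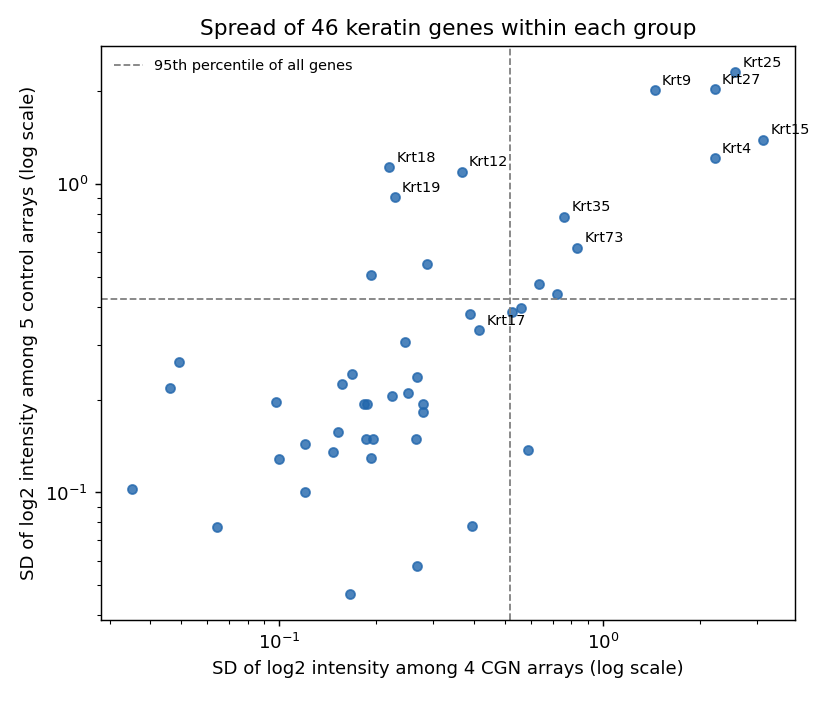
SD of log2 intensity of each of 46 keratin genes among the 4 CGN arrays (x axis) and among the 5 control arrays (y axis), both on log scales, with dashed lines at the 95th percentile of all genes, 0.515 for CGN and 0.425 for control. Krt25, Krt27, Krt15, Krt4 and Krt9 lie above both lines.

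Keratin filaments are anchored at desmosomes between cells and at hemidesmosomes on the basement membrane. Of 14 measured desmosome genes 1 rose and 4 fell, with a median change of -0.32. Dsg3, a desmosomal cadherin strongest in basal layers, rose by 2.25 ± 0.26, and Pkp1 and Evpl, which link desmosomes to keratin and to the cornified envelope, fell by 0.57 and by 0.89 on the log2 scale. Of 8 measured hemidesmosome and basement membrane genes 1 rose and 1 fell, with a median change of -0.20. The one that fell was Col17a1, a collagen spanning the basal cell membrane, by 0.60 on the log2 scale.

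Of 13 measured regulators of epidermal fate 2 rose and 7 fell, with a median of -0.60. The zinc finger factors Klf5 and Klf4 fell by 0.99 and by 1.05 on the log2 scale, and Tfap2c, an AP-2 factor, fell by 1.27. Among 13 follicle genes outside the keratin family 1 rose and 3 fell, with a median of 0.02; Dlx3 and Hoxc13, homeobox factors of hair differentiation, fell by 1.41 and by 0.87 on the log2 scale, and Gprc5d, a receptor, rose by 0.63. Of 15 genes of other intermediate filaments and their partners, Gfap rose by 0.59 and Prph fell by 1.32 on the log2 scale, both known from the nervous system, and the others did not pass. The genes named from these lists had limma adjusted p between 0.000159 and 0.0299. As background, 8.72% of all genes rose and 13.5% fell.

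Markers of other cells were read from the same fit. Of 8 neutrophil genes 6 rose, with mean log2 intensities of 6.99 to 7.49 in CGN skin, against 5.63 to 5.80 in control skin. Of 11 sebocyte genes 2 rose, of 8 fibroblast genes 1 rose and of 6 eccrine sweat gland genes 1 fell. None of 7 melanocyte and 8 adipocyte genes was called by limma, and 0 of them had an unadjusted p under 0.05. Of all genes 22.2% were called in either direction and 33.0% had an unadjusted limma p under 0.05. The part of these cells in the keratin values was not tested, apart from the muscle covariate given above.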

How the data were processed

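Each of 9 arrays measured skin RNA of 1 rat. The authors deposited linear intensity values for 43685 probe sets; the submitters' processing notes name RMA, with no version, and the genome build is not given in the sources used here. Of the columns, 8 matched a sample by name. A column named for the CGN group carries the number 5, which no CGN sample title has, and its values equalled those of CGN replicate 4. The values used were those deposited under each sample. Symbols were updated through RefSeq by accession or older symbol. Values were taken to log2 with no pseudocount, with 1 probe set per gene, the one with the highest mean over 9 arrays. CGN was compared with control by limma 3.58.1 in R 4.3.3 (lmFit, eBayes), 2-sided, with Benjamini-Hochberg adjustment over 19102 genes. Keratin pairs were compared by exact permutation. The procedure was tested on simulated data with independent normal noise, which hold no array that stands apart as CGN replicate 1 did. It recovered 36% of genes changed by 0.5 log2, 80% at 1.0 and 100% at 2.0 and 3.0, with 11 false calls. Named with values were called keratins, the furthest from 0 in each class, the basal and stress keratins, Krt1 and Krt10; Krt8, Krt9, Krt18, Krt25, Krt27 and Krt73 were added after their values were seen, and up to 3 genes with the smallest adjusted p came from each other list. The members and lists were chosen with earlier results of these data known. Alternatives varied normalization, a filter on dim genes, probe sets, moderation, weights, a replicate block, the muscle mean and each array. 1 gene of the lists is not reported here. The number of arrays limits the precision.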

Additional observations from a re-analysis of the deposited data

Results flagged for a closer look

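In 13 of 92 groups of arrays, 2 for each of 46 keratins, the highest or lowest array lay far from the others. Its gap to the nearest exceeded Dixon's 95% limit as a share of the range. For normally distributed values about 5% of groups do so by chance. The share over all genes was not computed, so the 13 are not read as an excess for keratins. The high array was CGN replicate 1 for 6 genes. It had 5538.09 for Krt15, against 61.88 to 88.03 in the other CGN arrays; 339.53 for Krt25, against 8.77 to 12.28; and 218.3 for Krt27, against 8.84 to 11.25. It had 269.37 for Krt73, against 78.18 to 91.79, and 60.74 for Krt35, a hair matrix keratin, against 20.79 to 21.94. For Krt19 it had 19.52, against 13.94 to 14.5. Krt18 was low in CGN replicate 4, at 6.18 against 8.31 to 8.44.

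Among control arrays, replicate 4 was high for 3 genes of the follicle. It had 8.83 for Krt28, against 6.15 to 6.81, 12.86 for Krt40, against 9.9 to 10.54, and 12.84 for Krt72, against 9.31 to 9.87. Control replicate 3 was low for Krt1, at 4713.99 against 10335.31 to 11809.52, and for Krt90, at 10.06 against 12.61 to 13.69. Control replicate 2 was low for Krt81, a hair shaft keratin, at 41.04 against 53.14 to 58.08.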

How the results depend on the processing

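Krt17 was called higher under every alternative run. Over all genes, calls were 440 higher and 68 lower, against 1665 and 2578 in the fit reported, with the muscle mean as a covariate, which also ended the calls of Krt2 and Krt24 and left 0 keratins lower by limma, 0 also at an unadjusted p under 0.05. Without moderation 0 keratins were called lower, with 3 at an unadjusted p under 0.05. With all probe sets tested, 2 keratins were called higher, the added one being Krt16. The keratin counts ran from 1 to 2 higher and from 1 to 5 lower over the fits that leave out 1 array, the most lower calls coming without CGN replicate 1. Array numbers in the sample titles did not show a pairing of the rats: deviations of same-numbered arrays correlated at -0.28 to 0.04. A deposited column name gives CGN replicate 4 the number 5, and pairing by that number was not tested. A replicate block by title number in effect drops control replicate 5, since no CGN title has its number. The block called 1433 genes lower, against 2578, with 2 keratins higher (Krt17 and Krt42) and 1 lower (Krt24). Under the block Krt2 had -0.43, Krt1 0.022 and Krt25 0.063.

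The log2 ratio of Krt17 to Krt14 differed by 4.04 under every way of counting splits, and passed only when they were counted by absolute difference, a setting added after the data were seen. In the count reported, a single pair at the smallest p cannot pass after adjustment. The Krt1 to Krt10 difference was -0.0083 after quantile normalization. Krt10 was the brightest gene on all 9 arrays, so that normalization gives it the same value on each. The -0.0083 is therefore the change of Krt1 alone and says nothing about the pair. Over the fits that leave out 1 array the Krt1 to Krt10 difference ran from -0.18 to 0.12, and that of Krt8 to Krt18 from -0.17 to 0.26. Of 375 values of named keratins under alternatives, 31 had the opposite sign to the value reported, in 10 genes, none of them called in the fit reported. With the muscle mean as a covariate these were 0.0061 for Krt8, 1.24 for Krt9, -0.12 for Krt16, 0.28 for Krt18, 0.14 for Krt19 and -0.59 for Krt27, each smaller than its SE. With array weights they were 0.030 for Krt9 and -0.36 for Krt27. Leaving out 1 array gave -0.26 to 0.091 for Krt1, -1.08 to 0.084 for Krt9, -0.091 to 0.030 for Krt14, -1.44 to 0.76 for Krt25, -1.06 to 0.91 for Krt27 and -0.54 to 0.13 for Krt73. Except where an array was left out, the cause was not tested. The planned Krt6a to Krt5 alternatives were not run, since Krt6a was not analysed here. Keratins near the bottom of the intensity scale, among them Krt8, Krt18, Krt28 and Krt72, leave little room to see a fall.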
